A study of Mus musculus with 6 samples.

Results

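The second beta D-J-C cluster of the mouse T cell receptor is the downstream set of segments that encodes the joined end of the beta chain. Its 8 members here were TRBD2, TRBJ2-1, TRBJ2-2, TRBJ2-3, TRBJ2-4, TRBJ2-5, TRBJ2-7 and TRBC2, and all 8 were matched among the 18 beta D, J and C genes of the RefSeq gene table. Beta contigs naming a TRBJ2 gene were taken from T cells of both mice, with the deposited high-confidence flag and at least 2 UMIs (counted cDNA molecules). These were 3462 of 4916 beta contigs in the WT mouse, in 2789 of 3263 T cells. In the 564Igi mouse they were 4812 of 6835, in 3864 of 4573 T cells.

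Spleen cells of 2 mice were profiled with the 10x 5' kit, with separate B cell and T cell V(D)J libraries. The WT mouse had the genotype C57BL/6JRj. The other was labelled 564Igi heterozygous. Its strain name, on B6.129S4(Cg), lists the targeted allele Igktm1(Igk564)Tik at the kappa locus and Ightm1(Igh564)Tik at the heavy chain locus, which insert a rearranged autoreactive antibody, and no change in the beta locus. Both samples were total splenocytes depleted of Ter-119 cells, and no age, sex or treatment was labelled. With 1 mouse per genotype there was no test between genotypes, and the exact 95% intervals below cover counting error only. Cells of 1 mouse are not replicates of a genotype.

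A beta chain is assembled in the thymus when a D segment joins a J segment and a V segment then joins the DJ unit. The locus holds a TRBD1-TRBJ1-TRBC1 cluster followed by the TRBD2-TRBJ2-TRBC2 cluster, so TRBD1 can join J genes of either cluster in the order of the locus. A V join to the first cluster leaves the second on that chromosome, whereas a V that lies upstream and joins the second removes the first. Transcripts that start upstream of a D segment and hold a J and a constant gene but no V are known from T cells.

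On chromosome 6 of GRCm38.p6, RefSeq places Trbd2 at chr6:41542163-41542176 and the J genes between 41542754 and 41543856, a span of 1103 bases. Along it lie Trbj2-1 (from 41542754), Trbj2-2 (41542957), Trbj2-3 (41543223), Trbj2-4 (41543362), Trbj2-5 (41543453) and Trbj2-7 (41543810). The pseudogene Trbj2-6 (41543598) sits before Trbj2-7, and Trbc2 follows at chr6:41546730-41548181. Each J gene left a recognisable end on the CDR3, the loop that contacts peptide. The ends are shown because length, charge and residues of the CDR3 are read against them below. They were read 5′ to 3′ from the CDR3 of primary chains, up to the closing phenylalanine codon. Capitals mark bases held in at least 90% of chains in each mouse, and lower case marks bases held in at least 50%.
TRBJ2-1: ctatGCTGAGCAGTTCTTC
TRBJ2-2: aaacaCCGGGCAGCTCTACTTT
TRBJ2-3: agtGCAGAAACGCTGTATTTT
TRBJ2-4: gtcaaAACACCTTGTACTTT
TRBJ2-5: caaGACACCCAGTACTTT
TRBJ2-7: tatGAACAGTACTTC

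As printed, the end of TRBJ2-7 was the shortest at 15 bases, and that of TRBJ2-2 the longest at 22. The last 5 residues were AEQFF for TRBJ2-1, GQLYF for TRBJ2-2, ETLYF for TRBJ2-3, NTLYF for TRBJ2-4, DTQYF for TRBJ2-5 and YEQYF for TRBJ2-7. NTLYF was also the end of TRBJ1-3, so these 5 residues do not name TRBJ2-4 alone. For 5 of the genes the listed residues closed 90.05% to 99.5% of chains, whereas YEQYF closed 65.2% of WT and 68.9% of 564Igi TRBJ2-7 chains.

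TRBJ2 genes formed most of the beta repertoire in both mice. The primary chain, the productive beta contig with most UMIs, used a TRBJ2 gene in 1933 of 2968 WT cells (65.1%, interval 63.4% to 66.8%). In the 564Igi mouse it did so in 2685 of 4166 cells (64.45%, 63.0% to 65.9%). The difference of -0.678 percentage points had an interval from -2.94 to 1.60.

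Usage was uneven along the cluster and highest at its far end. TRBJ2-7 was used by 19.4% of primary chains in each mouse (575 and 809 cells), the highest share of any of the 12 J genes seen. TRBJ2-5 followed at 12.03% in WT and 12.1% in 564Igi. TRBJ2-1, the first J of the cluster, stood at 10.7% and 10.95%, with intervals that overlapped those of TRBJ2-5. TRBJ2-3 and TRBJ2-4 were at 8.86% and 8.52% in WT and at 7.85% and 8.93% in 564Igi, again with overlapping intervals. TRBJ2-2 was lowest, at 5.63% and 5.18%.

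The genotypes gave close J profiles. The 6 TRBJ2 genes had 564Igi over WT ratios between 0.886 (TRBJ2-3) and 1.05 (TRBJ2-4), and every interval of the difference included 0. Of all 12 J genes 0 passed a fold of 1.5 (0%). The pseudogene TRBJ2-6 was named on no chain, with exact intervals that reach 0.124% in WT and 0.0885% in 564Igi. A floor of 3 counts would be 0.101% and 0.0720%. Whether the caller could name TRBJ2-6 was not tested.

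**Figure D1:**
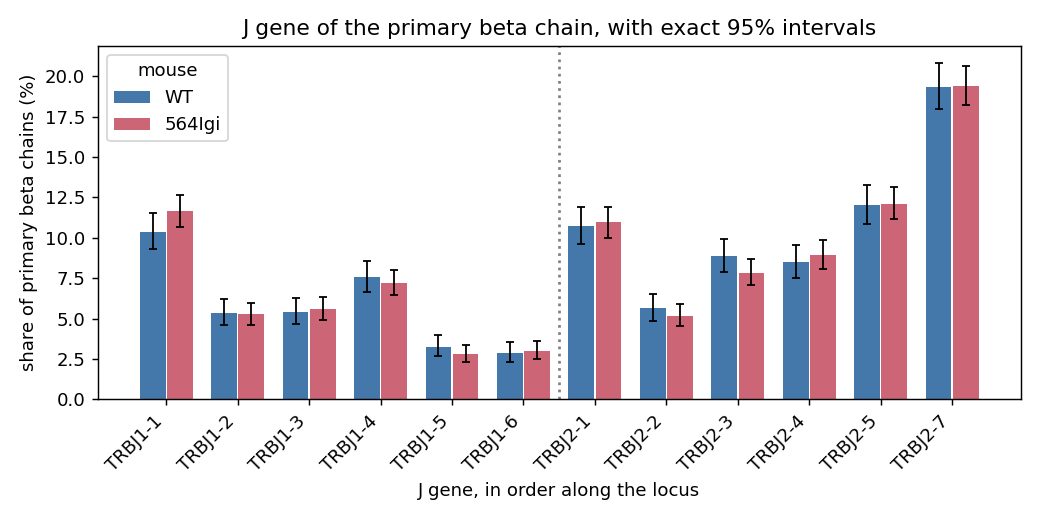
Share of primary beta chains (%) by J gene in locus order, TRBJ1 genes left of the dotted line and TRBJ2 genes right, for the WT mouse (2968 chains) and the 564Igi mouse (4166 chains). Bars are shares and whiskers exact 95% intervals; TRBJ2-7 is the tallest pair at 19.4% and the whiskers of the mice overlap for every gene.

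TRBD2, the D segment of the cluster, was the D most often named on TRBJ2 chains and was named on few TRBJ1 chains. A D gene was called on 78.8% of WT and 79.7% of 564Igi TRBJ2 chains, against 68.2% and 64.5% of TRBJ1 chains. TRBJ2 was thus higher by 10.6 points in WT (7.17 to 14.02) and 15.2 points in 564Igi (12.3 to 18.1). Among D-called TRBJ2 chains TRBD2 made 893 of 1523 in WT (58.6%, 56.1% to 61.1%) and 1177 of 2139 in 564Igi (55.0%, 52.9% to 57.1%). TRBD1 made the other 630 and 962. Among TRBJ1 chains, whose J genes lie upstream of TRBD2, the deposited call still named TRBD2 on 7.79% and 8.80% of D-called chains, the level beside which the TRBJ2 shares are read. TRBJ2 was higher by 50.8 points in WT (47.5 to 53.9) and 46.2 in 564Igi (43.3 to 49.0).

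The D calls were set beside the sequence itself with an 8-base word for each D, taken from the middle of D-called WT chains. The words are shown because a single base, in capitals, tells them apart.
TRBD1: gacAgggg
TRBD2: gacTgggg
The TRBD2 word stood in 340 of 1933 WT (17.6%) and 435 of 2685 564Igi (16.2%) TRBJ2 chains. It stood in 0 of 1035 WT and 0 of 1481 564Igi TRBJ1 chains, which allows shares of up to 0.290% and 0.203%. The TRBD1 word was found with both clusters, in 6.26% and 5.70% of TRBJ2 chains and in 11.2% and 9.18% of TRBJ1 chains. Neither word occurred in any chain without a D call. The words came from D-called chains, and word and call rest on the same sequence, so that count is not separate support for the calls. The words were chosen in the WT mouse, so only the 564Igi counts are independent of the choice.

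TRBJ2-2 was called with TRBD2 less often than its neighbours. TRBD2 made 41.5% of its D calls in WT (54 of 130) and 40% in 564Igi (64 of 160). The other TRBJ2 genes together gave 60.2% and 56.2%, so TRBJ2-2 was lower by 18.7 points in WT (difference -18.7, interval -27.6 to -9.35) and by 16.2 in 564Igi (-16.2, -24.2 to -7.91). The remaining J genes lay between 57.9% and 64.6% in WT and between 53.5% and 59.0% in 564Igi. Of the WT TRBJ2-2 cells, 9 belonged to a TRBV17 clone. The shares by J gene were not recomputed with each distinct chain counted once.

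TRBD2 made a smaller share of D-called TRBJ2 chains in the 564Igi mouse, with a difference of -3.61 points (-6.89 to -0.313). TRBJ2-3 had the widest gap, at 64.6% in WT and 53.5% in 564Igi, with intervals that overlap (57.5% to 71.3% and 47.2% to 59.7%). TRBJ2-7 had the opposite order, at 57.9% and 59.0%. With 1 mouse per genotype, animal and genotype cannot be told apart.

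**Figure D2:**
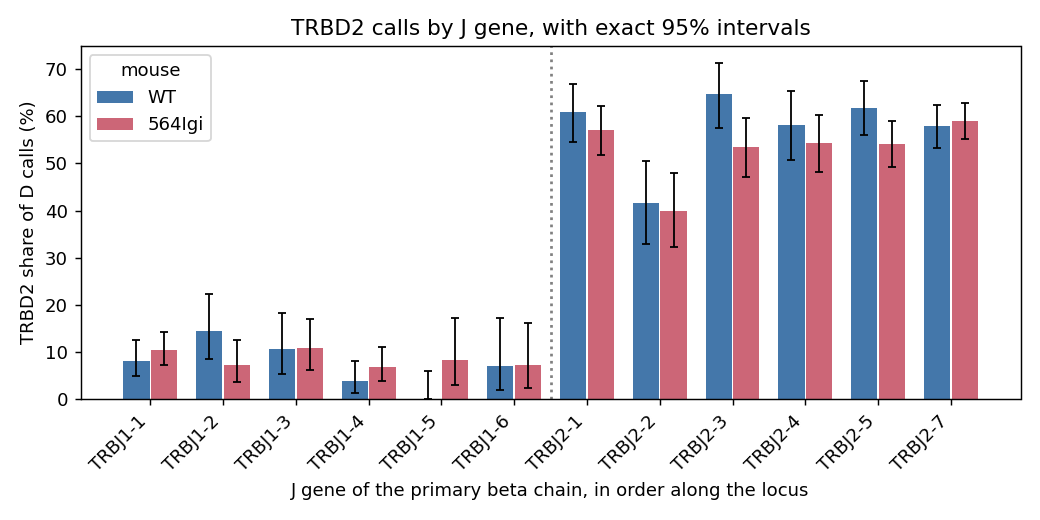
TRBD2 share of D calls (%) by J gene of the primary chain in locus order, with exact 95% intervals, WT and 564Igi. All TRBJ2 genes stand at 40% or above, TRBJ2-2 being the lowest of them, and TRBJ1 genes all stand below it.

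TRBC2, the constant gene of the cluster, was never named in the T cell tables. All 3456 C-called TRBJ2 contigs of the WT mouse and all 4804 of the 564Igi mouse were labelled TRBC1, as were all C-called TRBJ1 contigs. The exact intervals for TRBC2 reach 0.107% and 0.0768% of C-called TRBJ2 contigs, and a floor of 3 counts would be 0.0868% and 0.0624%. Over every contig of the T tables, called cells or not, TRBC2 was on 0 of 17630 and 0 of 24033. The C label therefore did not separate the clusters in these tables, and no count of TRBC2 usage can be given. The B cell tables did use the name, on 4 WT and 3 564Igi contigs, all joined to TRAJ9 and none in a called cell.

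CDR3 length followed the J gene. TRBJ2 chains averaged 13.8 residues in both mice (SD 1.52 over 1933 WT chains and 1.47 over 2685 564Igi chains). TRBJ2-2 gave the longest loops, with means of 14.6 (SD 1.35, n = 167) and 14.35 (SD 1.47, n = 216). TRBJ2-7 gave the shortest, at 13.1 (SD 1.40, n = 575) and 13.2 (SD 1.44, n = 809). TRBJ2-3 averaged 14.3 in both, TRBJ2-1 14.1 and 14.2, TRBJ2-4 13.8 and 13.9, and TRBJ2-5 13.8 in both. The spread among chains of 1 gene was thus about as wide as the gap between the extreme genes, which was 1.45 residues in WT (1.22 to 1.69) and 1.17 in 564Igi (0.947 to 1.39).

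The matched J end and the bases before it differed in opposite directions between those genes. TRBJ2-2 chains matched 6.27 more bases of their printed end than TRBJ2-7 chains in WT and 6.19 more in 564Igi. The bases before the matched end were fewer with TRBJ2-2, with a difference of -1.91 in WT (-2.57 to -1.25) and -2.69 in 564Igi (-3.35 to -2.03). All 15 bases of the printed end were matched in 65.2% and 68.9% of TRBJ2-7 chains. All 22 were matched in 47.3% and 44.4% of TRBJ2-2 chains, so these shares refer to ends of unlike length.

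Over all their J genes the clusters differed little in mean length. TRBJ2 chains were longer than TRBJ1 chains by 0.219 residues in 564Igi (0.130 to 0.309), and the WT difference of 0.101 had an interval that included 0 (-0.00729 to 0.209). With TRBJ2-7 left out, TRBJ2 chains were longer by 0.3825 residues in WT (0.267 to 0.498) and 0.481 in 564Igi (0.386 to 0.576). That contrast kept TRBJ1-1, which was also short, with means of 13.1 and 13.0. Within TRBJ2 chains, a TRBD2 call went with a longer loop than a TRBD1 call, by 0.605 residues (0.471 to 0.738) and 0.570 (0.460 to 0.679). TRBJ2 chains with no D call, left out of this contrast, averaged 12.5 residues in WT and 12.6 in 564Igi, so the call went with length. RefSeq gives Trbd2 14 bases and Trbd1 12. The part of either in the difference was not tested.

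**Figure D3:**
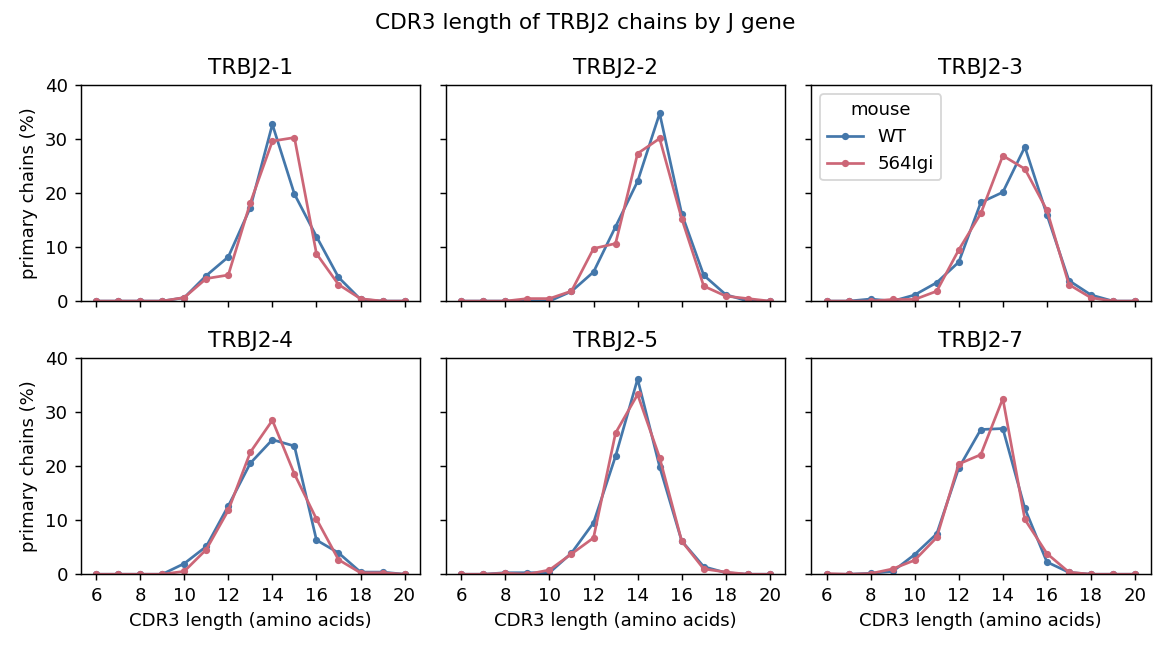
CDR3 length (amino acids, x) against share of primary chains (%, y) for each TRBJ2 gene, WT and 564Igi. The curves of the mice lie close together, and TRBJ2-7 (mean 13.1 and 13.2) sits left of TRBJ2-2 (mean 14.6 and 14.35).

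CDR3 residues differed between the clusters. A pair of adjacent glycines occurred in 32.5% of WT and 32.6% of 564Igi TRBJ2 chains, against 13.8% and 14.5% of TRBJ1 chains. The difference was 18.7 points in WT (15.6 to 21.6) and 18.1 in 564Igi (15.5 to 20.6). Within TRBJ2 chains the pair stood in 55.8% and 58.4% of TRBD2-called loops and 18.4% and 17.4% of TRBD1-called loops. By J gene it ran from 25.7% (TRBJ2-2) to 36.8% (TRBJ2-1) in WT, and from 22.7% (TRBJ2-2) to 34.7% (TRBJ2-1) in 564Igi.

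Loops with a net charge of -1 or less, counting arginine and lysine against aspartate and glutamate, made 69.1% and 67.4% of TRBJ2 chains but 47.9% and 49.6% of TRBJ1 chains. The share split the cluster in the same way as the printed ends. It was 72.8% to 81.7% over both mice for TRBJ2-1, TRBJ2-3, TRBJ2-5 and TRBJ2-7, the 4 of 6 genes with an acidic residue in their last 5. It was 27.5% and 30.6% for TRBJ2-2 and 30.8% and 33.3% for TRBJ2-4, which have none. In the first cluster 3 of 6 genes have such a residue. TRBJ1-1 gave 71.1% and 75.3% and TRBJ1-2 gave 74.8% and 71.7%, so high shares were not limited to TRBJ2. TRBJ1-4, whose end ERLFF also holds an arginine, gave 21.9% and 24.7%. With the last 5 residues removed, the TRBJ2 shares came to 29.1% and 29.6% and the TRBJ1 shares to 27.1% and 26.5%. That difference was 2.02 points in WT (-1.44 to 5.42) and 3.07 in 564Igi (0.177 to 5.92), and each TRBJ2 gene then lay between 25.1% and 32.3%.

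A large part of the TRBJ2 contigs named a J but no V. These V-less contigs have no CDR3 and no D call. They made 1293 of 3462 TRBJ2 contigs in WT (37.4%, 35.7% to 39.0%) and 1758 of 4812 in 564Igi (36.5%, 35.2% to 37.9%). Among TRBJ1 contigs the shares were 19.3% and 16.3%, lower by 18.1 points in WT (15.4 to 20.7) and 20.2 in 564Igi (18.0 to 22.3). TRBJ2 genes thus made 82.5% and 84.4% of all V-less beta contigs.

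V-less TRBJ2 contigs were most frequent in cells whose productive chain used the other cluster. Among cells with a TRBJ1 primary chain, 644 of 1035 in WT (62.2%, 59.2% to 65.2%) and 876 of 1481 in 564Igi (59.15%, 56.6% to 61.7%) also held a V-less TRBJ2 contig. Among cells with a TRBJ2 primary chain, 504 of 1933 (26.1%, 24.1% to 28.1%) and 671 of 2685 (25.0%, 23.4% to 26.7%) held one. The difference was 36.2 points in WT (32.5 to 39.7) and 34.2 in 564Igi (31.1 to 37.2). Cells with no productive beta chain lay between these groups, at 49.2% and 51.8%. The 564Igi minus WT differences had intervals that included 0, at -3.07 points (-6.99 to 0.869) for TRBJ1 primary cells and -1.08 (-3.68 to 1.49) for TRBJ2 primary cells.

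V-less TRBJ1 contigs were less frequent. With the flag they were found in 6.47% of WT TRBJ1 primary cells and 8.33% of TRBJ2 primary cells, and in 6.01% and 6.67% in 564Igi. The intervals of these differences, -3.80 to 0.201 and -2.19 to 0.960, included 0. No cell had more than 1 flagged V-less contig, so a cell with a flagged V-less TRBJ2 contig could not show a TRBJ1 one, and the flagged shares do not compare the clusters freely. Without the flag V-less TRBJ1 contigs were in 18.55% of WT TRBJ1 primary and 15.3% of TRBJ2 primary cells, a difference of 3.24 points (0.368 to 6.20). In 564Igi the shares were 16.5% and 12.96%, a difference of 3.58 (1.30 to 5.93).

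**Figure D4:**
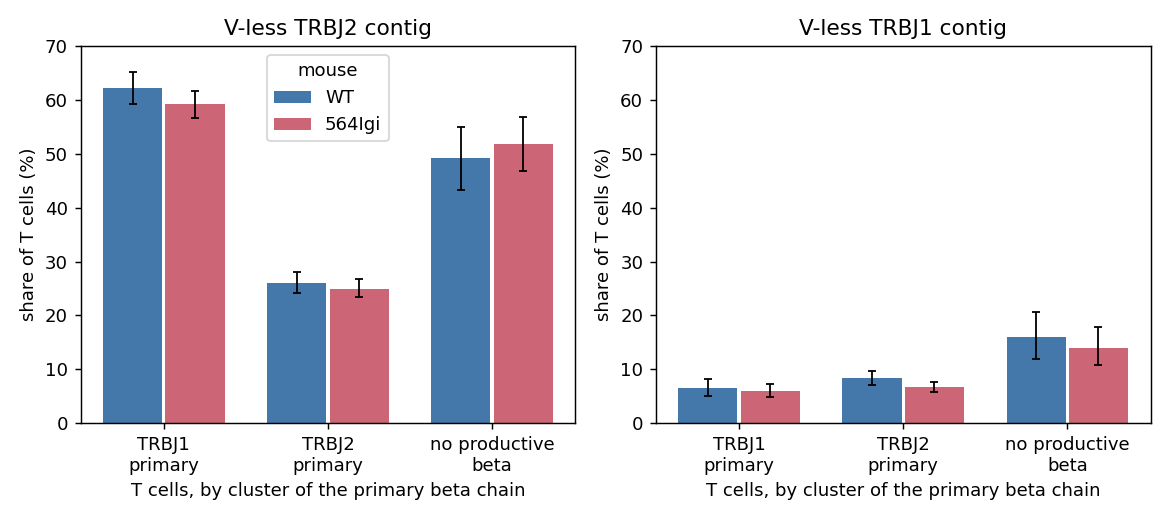
Share of T cells (%) with a V-less TRBJ2 contig (left) or a V-less TRBJ1 contig (right), by cluster of the primary beta chain, with exact 95% intervals, WT and 564Igi. On the left TRBJ1 primary cells stand at 62.2% and 59.15% and TRBJ2 primary cells at 26.1% and 25.0%; on the right all groups stay at 15.9% or below.

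The gap held gene by gene. V-less TRBJ2 contigs were in 57.8% to 69.8% of WT cells for each of the 6 TRBJ1 genes used by the primary chain, and in 57.1% to 62.4% in 564Igi. For the 6 TRBJ2 genes the ranges were 23.1% to 31.7% and 20.99% to 30.6%, and no gene of a cluster entered the range of the other. Cells with 2 productive beta chains were ordered by how many of the chains used TRBJ2. A V-less TRBJ2 contig was in 20 of 27 WT cells with 0 TRBJ2 chains, 33 of 66 with 1 and 9 of 47 with 2. The 564Igi counts were 27 of 36, 51 of 118 and 31 of 121.

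Within TRBJ2 primary cells the share was 27.6% and 28.5% after a TRBD1 call and 22.1% and 22.5% after a TRBD2 call, a difference of 5.56 points in WT (1.07 to 10.1) and 5.97 in 564Igi (2.19 to 9.76). Cells whose primary chain had no D call gave 32.4% in WT (133 of 410), above both, and 24.2% in 564Igi (132 of 546), between them. Among TRBJ2 primary cells with a V-less TRBJ2 contig, that contig named the same J as the primary chain in 90 of 504 WT and 120 of 671 564Igi cells (17.9% each). Multiplying the J profiles of the V-less contigs and of the TRBJ2 primary chains gives 19.0% and 19.9%.

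Depth was close between the groups. The median was 16 beta UMIs per cell for TRBJ1 primary and 14 for TRBJ2 primary cells in WT, and 15 and 13 in 564Igi, counts that include the V-less contigs. The primary chain itself had medians of 10 and 11 UMIs in each mouse. With every cell thinned to 10 beta UMIs and shallower cells left out, 2261 WT and 2970 564Igi cells remained, and the difference was 34.0 points in WT and 33.5 in 564Igi. Barcodes called in both the B and T tables, which were left out above, gave 62.6% against 21.3% in WT and 59.0% against 27.8% in 564Igi.

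Without the high-confidence flag a cell had up to 5, and the number of V-less beta contigs rose from 1568 to 2563 in WT and from 2083 to 3389 in 564Igi. The share with a V-less TRBJ2 contig was then 76.3% against 38.7% in WT and 73.0% against 35.7% in 564Igi. Contigs of 2 or more different TRBJ2 genes, each without a V, were found in 150 of 1035 TRBJ1 primary cells (14.5%) and 35 of 1933 TRBJ2 primary cells (1.81%) in WT. In 564Igi they were found in 204 of 1481 (13.8%) and 58 of 2685 (2.16%). The difference was 12.7 points in WT (10.5 to 15.04) and 11.6 in 564Igi (9.79 to 13.55). Contigs of 2 or more TRBJ1 genes without a V were seen in at most 0.155% of either group.

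TRBJ2-1, the J nearest TRBD2, stood apart among the V-less TRBJ2 contigs. It was V-less in 447 of 797 contigs in WT (56.1%) and 624 of 1139 in 564Igi (54.8%). The other TRBJ2 genes together gave 31.7% and 30.9%, a gap of 24.3 points in WT (20.4 to 28.2) and 23.9 in 564Igi (20.6 to 27.2). TRBJ2-2 was lowest, at 17.8% and 21.3%, and the remaining genes lay between 28.8% and 35.8%. TRBJ2-1 thus made 34.6% and 35.5% of V-less TRBJ2 contigs but 16.5% and 17.0% of TRBJ2 primary chains. The first cluster was uneven too. TRBJ1-2 had the most V-less TRBJ1 contigs, 94 in WT and 102 in 564Igi, against 59 and 71 for TRBJ1-1, the J nearest TRBD1. Of all primary chains TRBJ1-2 made 5.36% and 5.26%, and TRBJ1-1 10.4% and 11.6%. An excess among V-less contigs was thus not limited to TRBJ2-1. Among TRBJ1 primary cells 23.8% and 23.4% held a V-less TRBJ2-1 contig, against 7.81% and 7.49% of TRBJ2 primary cells.

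V-less TRBJ2-1 contigs were longer than those of the other TRBJ2 genes. They had a median of 446 bases in WT and 444 in 564Igi, with 31.3% and 30.0% between 440 and 450 bases. In that window fell 2.25% and 2.12% of the other TRBJ2 V-less contigs, and 51.4% and 47.1% fell between 350 and 370 bases. The windows were set after the lengths had been seen, so these shares are a description. The other TRBJ2 genes had medians from 361.5 (TRBJ2-5) to 392 (TRBJ2-3) bases in WT and from 361 (TRBJ2-4) to 405 (TRBJ2-3) in 564Igi, with TRBJ2-7 at 364 and 389.5. V-less TRBJ1 contigs had medians from 319 (TRBJ1-5) to 536 (TRBJ1-1) in WT and from 319 (TRBJ1-5) to 562.5 (TRBJ1-2) in 564Igi, so lengths near that of TRBJ2-1 were not limited to it. Productive TRBJ2 contigs were longer, with medians of 650 to 668 bases by gene.

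**Figure D5:**
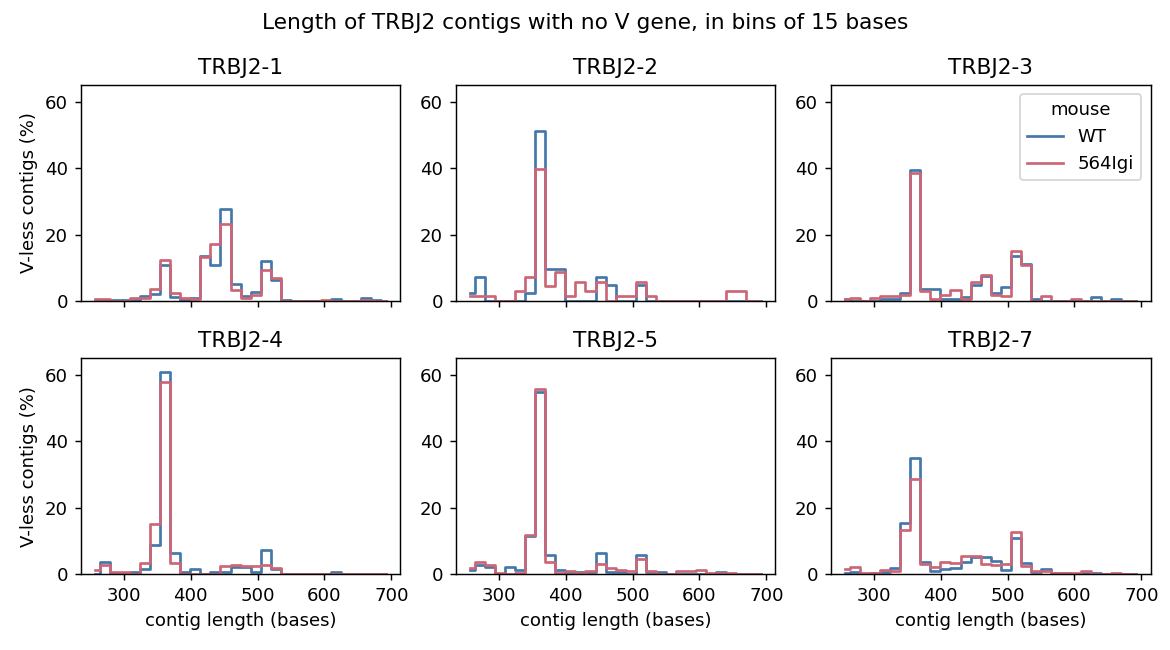
Length of V-less TRBJ2 contigs (bases, x, in bins of 15) against the share of each gene's contigs in the plotted range (%, y), WT and 564Igi; 31 WT and 44 564Igi contigs lie outside the range. TRBJ2-1 peaks near its median of 446 and 444 bases, whereas TRBJ2-4 and TRBJ2-5 peak near 361.5.

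TRBJ2 contigs with a V that were not productive were fewer, 153 in WT and 170 in 564Igi. They made 73.6% of 208 nonproductive beta contigs in WT, 8.82 points above the 64.7% among productive contigs (2.06 to 14.9). In 564Igi they made 66.7% of 255, 2.10 points above 64.6% (-4.20 to 8.03). The WT excess was not kept under 2 of the 4 other settings run. With at least 5 UMIs it was -3.70 points (-17.3 to 8.69), and without the flag 0.868 (-4.43 to 5.94). The 564Igi difference under these settings was -6.13 (-17.6 to 4.66) and -5.46 (-10.3 to -0.698), of the other sign. Nonproductive TRBJ2 contigs had a median of 3 UMIs in each mouse, against 11 and 10 for productive ones. By gene 5.69% (TRBJ2-7) to 9.79% (TRBJ2-2) of WT contigs with a V were nonproductive, and 5.05% (TRBJ2-1) to 6.56% (TRBJ2-4) in 564Igi.

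Cells with 2 productive beta chains numbered 140 in WT and 275 in 564Igi. TRBJ2 genes were on 160 of their 280 chains in WT (57.1%, 51.1% to 63.0%) and 360 of 550 in 564Igi (65.5%, 61.3% to 69.4%). Both chains used TRBJ2 in 47 WT (33.6%) and 121 564Igi cells (44%), beside 32.7% and 42.8% from multiplying the chain shares of these cells. A second chain was found in 4.35% of WT TRBJ2 primary cells and 5.70% of TRBJ1 primary cells, a difference of -1.35 points (-3.17 to 0.315). The 564Igi shares were 7.002% and 6.75%, with a difference of 0.250 (-1.43 to 1.85). The first chain had a median of 12 UMIs in both mice and the second 7 and 6. No doublet caller was run, so the part of droplets with more than 1 T cell in these counts was not tested.

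No V gene passed the rule for a difference between the clusters. Of 20 V gene names with at least 50 primary chains in each mouse, 0 had a TRBJ2 share differing from the TRBJ1 share by 1.5-fold the same way in both mice (0%). TRBV19, chosen after its values were seen, was the 1 name of the 20 whose difference had an interval on the same side of 0 in both mice. It made 6.21% of TRBJ2 and 8.21% of TRBJ1 chains in WT (difference -2.005, interval -4.12 to -0.0225) and 5.62% and 8.17% in 564Igi (-2.55, -4.28 to -0.906). The list of TRBV26, TRBV12-1, TRBV12-2 and TRBV16, known for superantigen binding, made 18.5% and 18.8% of TRBJ2 chains and 15.8% and 17.2% of TRBJ1 chains. Those differences had intervals that included 0 (-0.246 to 5.5 in WT and -0.834 to 4.09 in 564Igi).

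Within the cluster 1 of 32 V-J pairs with at least 20 cells in each mouse passed the same rule (3.12%). TRBV12-2 made 6.16% of TRBJ2-5 chains in WT (22 of 357), 1.77-fold its 3.49% among the other TRBJ2 chains. In 564Igi it made 6.34% (32 of 505), 1.92-fold its 3.30%. TRBV12-2 is named in these tables beside a combined label, TRBV12-2+TRBV13-2, so its own share depends on how the caller split them.

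Chains shared by the mice were few. Of the distinct TRBJ2 beta chains (V gene, J gene and CDR3 residues), 23 were found in both mice, 1.21% of 1894 in WT and 0.870% of 2644 in 564Igi. TRBJ2-7 had 12 of them and TRBJ2-2 had 0, and their mean CDR3 was 12.8 residues, against 13.8 over all TRBJ2 chains. Of the 23, 5 also had the same nucleotides in both mice. For TRBJ1, 9 distinct chains were found in both mice, 0.888% of 1014 in WT and 0.614% of 1466 in 564Igi. Their mean CDR3 was 13.1 residues, and 4 had the same nucleotides in both mice. Sharing was thus not limited to TRBJ2. The chain with most cells was TRBV10 with TRBJ2-4 and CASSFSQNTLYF, in 1 WT and 2 564Igi cells. Barcodes called T cells in both mice numbered 29, and 0 of them had the same beta CDR3 in both.

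Few cells of the cluster belonged to expanded clones. Clones of 2 or more cells with the same V, J and CDR3 nucleotides held 2.85% of WT and 2.09% of 564Igi TRBJ2 primary cells. TRBJ1 primary cells are not set beside these shares, so they are not read as particular to TRBJ2. In WT the clones reached 9 cells for a TRBV17 chain with TRBJ2-2, and 5 for a TRBV15 chain with TRBJ2-7 (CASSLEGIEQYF). In 564Igi they reached 8 cells for TRBV5 with TRBJ2-7 (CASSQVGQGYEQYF) and 6 for TRBV19 with TRBJ2-4 (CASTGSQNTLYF).

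Alpha chains were found at about the same rate beside TRBJ2 (75.1% and 76.0%) and TRBJ1 (74.0% and 75.8%). Cells with the invariant natural killer T alpha chain, TRAV11 joined to TRAJ18, used TRBJ2 in 16 of 30 WT (53.3%, 34.3% to 71.7%) and 40 of 60 564Igi cells (66.7%, 53.3% to 78.3%). TRBJ2-7 was on 8 of the 30 and 7 of the 60. The alpha chain of mucosal-associated invariant T cells, TRAV1 with TRAJ33, was found with a primary beta chain in 0 WT and 2 564Igi cells, and both of these used TRBJ2.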

How the data were processed

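The 4 V(D)J contig tables of 2 mice were used and the gene expression libraries were left out. Per the file headers, each deposited table lists contigs with raw read and UMI counts, a length in bases, a cell call, a confidence flag, gene names and the CDR3. Cell Ranger 3.0.2 and mm10 are named in the submitters' processing notes. The setting of cell calls and of the flag is not stated there. The T tables held 30190690 (WT) and 32922893 (564Igi) reads and 86409 and 114433 UMIs.

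T cells were barcodes called in the T table and not in the same mouse's B table, which left out 345 WT and 373 564Igi barcodes. Contigs had to be labelled TRB, high-confidence and have at least 2 UMIs. A V-less contig names a J and no V. Each share has an exact Clopper-Pearson 95% interval, and each difference a Newcombe interval built from these. Intervals of mean lengths use the normal approximation over chains. Count floors are 3 counts. V genes needed 50 chains and V-J pairs 20 cells in each mouse, with a fold of 1.5 the same way in both mice; beta chains in both mice and the TRBJ1, TRBD1, TRBC1, superantigen, invariant NKT and MAIT lists were also named. The V gene rule was checked on simulated data for genes raised among TRBJ2 chains. Lowered genes and the V-J pair rule were not checked in this way. Members and lists were chosen with earlier results of these data known. Germline J and D sequences were not used here, so J ends and D words come from the CDR3s. Gene positions and names are from RefSeq (GRCm38.p6). Tables were handled with pandas 2.3.3 and NumPy 2.4.6 under Python 3.11.15, intervals came from SciPy 1.17.1, and plots from matplotlib 3.10.9.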

Additional observations from a re-analysis of the deposited data

Results flagged for a closer look

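TRBJ2 contigs also appeared outside called T cells. Barcodes of the T tables that were not called cells held 88 TRBJ2 contigs in WT and 129 in 564Igi with the flag and at least 2 UMIs, of which 48 and 44 had no V. The B tables held 21 TRBJ2 contigs in WT and 16 in 564Igi, and 0 of them named a V. TRBC2 was named on 4 WT contigs of the B table, all with TRAJ9 and none in a called cell.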

How the results depend on the processing

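No paired analysis was possible because there was 1 mouse per genotype and no test between groups. Of 318 values recomputed under an alternative, 299 stayed within the interval of the value given above, and 19 did not. Of those 19, 3 changed sign, all differences in the nonproductive share. Part of the 299 could not move. Keeping contigs without the flag, or full-length contigs only, left the primary chains and so their values unchanged. TRBC2 was named on no contig of the T cell libraries, so its share was fixed. Such values do not test the results. Usage, TRBD2, D call, TRBC2 and CDR3 length values of TRBJ2 chains all stayed within their intervals under every alternative run (minimum of 1 or 5 UMIs, barcodes called in both tables kept, contigs without the flag kept, exactly 1 productive beta chain, each distinct chain once, and, for usage and mean length alone, full-length contigs only), although the WT length difference between clusters then had an interval above 0 under 2 of them.

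With a minimum of 5 UMIs the TRBJ2 share of nonproductive contigs was 61.7% in WT and 59.0% in 564Igi, and nonproductive minus productive was -3.70 points in WT and -6.13 in 564Igi, both of the other sign than above. Without the flag the shares were 65.9% and 59.5% and the differences 0.868 and -5.46, the latter also of the other sign, with an interval (-10.3 to -0.698) that excludes 0. The cause was not tested.

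The share of cells with a V-less TRBJ2 contig was recomputed under alternatives added after seeing the data. With a minimum of 5 UMIs it was 43.9% of WT and 37.7% of 564Igi TRBJ1 primary cells, 13.96% and 11.65% of TRBJ2 primary cells, and the differences were 29.9 and 26.1 points. Without the flag it was 76.3% and 73.0%, 38.75% and 35.7%, and the 564Igi difference was 37.3. Every alternative run kept TRBJ1 primary cells higher in both mice. With beta UMIs thinned to 10 the shares stayed within their intervals, at 59.5% and 58.4% of TRBJ1 primary and 25.5% and 24.9% of TRBJ2 primary cells.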
